A study of Mus musculus with 4 samples.

Results

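The genes of oxidative phosphorylation were followed through 4 SMART-seq libraries of mouse tumour-infiltrating CD8 T cells. Members were chosen by symbol: nuclear genes whose names begin with Ndufa, Ndufb, Ndufc, Ndufs or Ndufv, with Uqcr, with Cox4 to Cox8 or with Atp5, together with Sdha, Sdhb, Sdhc and Sdhd, and the protein genes of mitochondrial DNA. Names containing "-ps" were left out. This gave 110 members among the 45773 genes of the tables, 97 of them nuclear and 13 mitochondrially encoded. The values are TPM, in which reads are divided by transcript length and every library is scaled to about the same total. Genes averaging 1 TPM or more (12570 genes) are called measured, and these included 91 nuclear members and all 13 mitochondrially encoded members. The nuclear members below that mean were Cox8b, Cox8c, Cox7b2, Cox4i2, Ndufa11b and Ndufs6b.

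In the gain experiment, PmelI CD8 T cells, whose transgenic receptor recognises the antigen gp100, had been transduced with the retroviral vector MigRI or with Klf4, a zinc finger transcription factor. They were transferred on day 7 into Rag2 KO mice, which lack T and B cells of their own, bearing MC38-gp100 tumours, and GFP+ cells were sorted from the tumours on day 15. In the loss experiment, PD1+ CD8+ cells were sorted on day 14 from MC38 colon tumours of control (WT) mice and of Klf4 cKO mice, with 300000 tumour cells inoculated in both experiments and 10000 to 20000 T cells per library. Each group held 1 library, so no difference can be set against a spread between animals, and no test was run. The Cre driver, the deleted exons, the ages of the mice and how many tumours entered a library were not stated in the labels. Klf4 itself was at 8.69, 26.05, 7.52 and 9.28 TPM in MigRI, Klf4-transduced, control and cKO, so its level does not check the cKO label, and the last library is called cKO-labelled. Values below follow that order of libraries.

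Oxidative phosphorylation is carried out in the inner mitochondrial membrane. Complexes I (NADH dehydrogenase) and II (succinate dehydrogenase) pass electrons to ubiquinone, complexes III and IV (cytochrome c oxidase) carry them on to oxygen, and complex V, the ATP synthase, uses the resulting proton gradient to make ATP. Most subunits are encoded in the nucleus, but the membrane core of complexes I, III, IV and V includes proteins made from mitochondrial DNA, which is transcribed from both strands into long precursors that are cut into single messages. Activated CD8 T cells use both glycolysis and respiration, and loss of mitochondrial function is a known trait of exhausted T cells in tumours.

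In both experiments the summed nuclear subunits were lower and the summed mitochondrially encoded subunits higher in the library with altered Klf4 than in its reference. Nuclear members took 6.91% of all TPM in MigRI and 3.28% with Klf4, and 10.1% in control and 4.62% in cKO-labelled cells. Mitochondrially encoded members took 0.834% and 1.37%, and 0.875% and 1.76%. The ratio of mitochondrially encoded to nuclear TPM was therefore 0.121 in MigRI and 0.417 with Klf4, 3.45-fold apart. It was 0.0867 in control and 0.381 in the cKO-labelled library, 4.39-fold apart. Without the highest member of each class the 4 ratios were 0.0966, 0.304, 0.0760 and 0.282, and with medians in place of sums they were 0.815, 1.84, 0.622 and 1.32. Each reference library lay below its altered library by all 3 measures. The MigRI and control values come from different cells, hosts and days and are set side by side only.

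**Figure D1:**
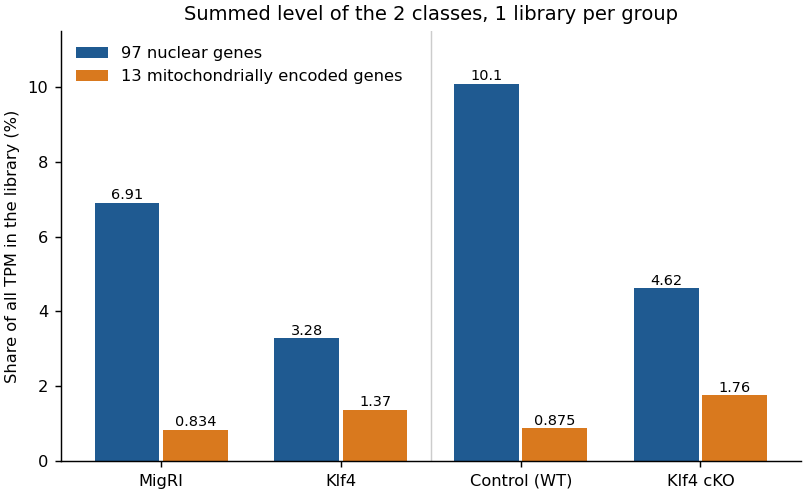
Share of all TPM (percent, vertical axis from 0) taken by the nuclear and the mitochondrially encoded genes in each of the 4 libraries. Each class has 1 bar per library, with no error because each group is 1 library. The nuclear share is 6.91% and 10.1% in the MigRI and control libraries and 3.28% and 4.62% in the other pair. The mitochondrially encoded share is higher in that other pair.

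The same order held complex by complex where both genomes contribute. In complex IV the ratio of mitochondrially encoded to nuclear TPM was 0.224, 0.760, 0.182 and 0.725. In complex III, where CYTB is the only mitochondrially encoded subunit, it was 0.0896, 0.452, 0.0293 and 0.282. Complex I gave 0.0655, 0.237, 0.0710 and 0.190, and complex V gave 0.146, 0.459, 0.0546 and 0.338. Complex II, which has no mitochondrially encoded subunit, behaved unlike the other nuclear groups. Its summed TPM was 1305 in MigRI and 1489 with Klf4, and 209.9 in control and 779 in cKO-labelled cells. The summed nuclear subunits of complex I went the other way, from 27108 to 11093 and from 36024 to 14897 TPM, those of complex III from 8931 to 3829 and from 15460 to 4602, those of complex IV from 15724 to 6486 and from 24313 to 12453, and those of complex V from 15398 to 9526 and from 24212 to 13058.

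Gene by gene, differences were taken within an experiment as log2(TPM + 1), where the added 1 shrinks the change of genes at low levels, and a difference of at least 1 (2-fold) was called. For Klf4 over MigRI, 53 of the 91 measured nuclear members were lower by this call and 11 were higher, beside 10.3% of all measured genes lower and 43.7% higher. Their median difference was -1.12, with a range from -3.78 to 2.90. Of the 13 mitochondrially encoded members, none was 2-fold lower and 2 were 2-fold higher, with a median of 0.73. For cKO-labelled over control, 41 nuclear members were lower and 26 higher, beside 6.92% and 38.4% of all measured genes, with a median of -0.79. Of the mitochondrially encoded genes 6 were higher and 1 was lower, with a median of 0.99. The medians of the classes were thus 1.86 and 1.78 log2 apart.

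These directions depend on the centre of the scale for 1 class only. The median measured gene itself was 0.79 higher with Klf4 and 0.74 higher in the cKO-labelled library, and relative to it the nuclear medians were -1.91 and -1.53. The mitochondrially encoded median was -0.06 relative to the median gene in the gain experiment, against 0.73 as deposited, and 0.25 in the loss experiment. On that relative scale 69 nuclear members were lower and 3 higher with Klf4, beside 23.6% and 21.4% of all measured genes. In the cKO-labelled library 57 were lower and 12 higher, beside 16.2% and 12.4%. The median of the mitochondrially encoded genes thus lay near the median gene, with single genes from -2.03 (ND6) to 1.03 (ATP6) in the loss experiment, and the nuclear members lay mostly below it.

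Complex I takes electrons from NADH. Of its 40 measured nuclear subunits, 27 were at least 2-fold lower and 4 higher with Klf4, beside 10.3% and 43.7% of all measured genes. In the cKO-labelled library 21 were lower and 8 higher, beside 6.92% and 38.4%. The medians were -1.22 and -1.07. Ndufa12, an accessory subunit, was at 929, 190, 912 and 246 TPM, differences of -2.28 and -1.89. Ndufa1, a small membrane subunit, was at 710, 156, 1863 and 471 TPM, differences of -2.18 and -1.98. Ndufb7 and Ndufb8, accessory subunits and the most abundant of the complex by mean level, were at 2491, 706, 4798 and 1092 TPM and at 2663, 699, 2289 and 857 TPM. All 4 were lower in each altered library than in its reference. Some subunits of the redox arm did the reverse. Ndufv1, which binds NADH, was at 102, 297, 17.6 and 68.1 TPM, differences of 1.54 and 1.89. Ndufs1, the large iron-sulfur subunit, was at 8.34, 31.1, 2.79 and 13.4 TPM, differences of 1.78 and 1.92. Both stayed above the median gene, by 0.75 and 0.99 in the gain experiment and by 1.15 and 1.19 in the loss experiment.

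Other redox subunits were lower, or lower in the gain experiment only. Ndufs7, an iron-sulfur subunit at the ubiquinone site, was at 660, 375, 501 and 388 TPM, differences of -0.81 and -0.37. Ndufs8, an iron-sulfur subunit next to the ubiquinone site, was at 766, 353, 498 and 436 TPM, 2-fold lower with Klf4 (-1.12) and -0.19 in the cKO-labelled library. Ndufv2, an iron-sulfur partner of Ndufv1, was at 378, 236, 101 and 248 TPM, and Ndufs3 at 305, 240, 80.6 and 230 TPM. Both were lower than the reference by less than 2-fold with Klf4 (-0.68 and -0.34) and higher in the cKO-labelled library, with TPM ratios of 2.44 and 2.85. Ndufa9 and Ndufa10, large accessory subunits, were at 334, 494, 56.4 and 204 TPM and at 117, 224, 27.1 and 115 TPM. In the cKO-labelled library they were 1.84 and 2.04 higher, and with Klf4 0.56 and 0.93 higher. Ndufb4, Ndufb4b and Ndufb4c are near-identical copies, and how reads were divided between them is uncertain.

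The 8 Ndufaf genes encode assembly factors of complex I, which help build it but are not part of it. With Klf4, 2 were at least 2-fold higher and 2 lower, beside 43.7% and 10.3% of all measured genes, with a median of -0.43. In the cKO-labelled library 4 were higher and 1 lower, beside 38.4% and 6.92%, with a median of 1.10. Ndufaf8, the most abundant, was at 320, 98.9, 514 and 151 TPM, differences of -1.69 and -1.76. Ndufaf5, a hydroxylase that modifies a complex I subunit, was at 16.4, 37.6, 1.77 and 19.4 TPM, differences of 1.15 and 2.88. The group thus held members on both sides in each experiment.

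Complex II, which also acts in the tricarboxylic acid cycle, was the only complex in which no nuclear gene was 2-fold lower in either experiment. With Klf4, 2 of its 4 genes were at least 2-fold higher, near the share of all measured genes, 43.7%. In the cKO-labelled library all 4 were, beside 38.4% of all measured genes. The medians were 1.15 and 1.66, or 0.35 and 0.92 relative to the median gene. On that relative scale 0 of the 4 were 2-fold higher with Klf4 and 2 in the cKO-labelled library. Sdha, the flavoprotein, was at 26.6, 84.5, 11.7 and 27.2 TPM, differences of 1.63 and 1.15. Sdhc, a membrane anchor, was at 58.8, 177, 15.3 and 44.7 TPM, differences of 1.57 and 1.48. Both were higher in each altered library than in its reference, also relative to the median gene (0.84 and 0.41 for Sdha, 0.78 and 0.75 for Sdhc). Sdhd, the other anchor, was at 295, 485, 37.4 and 188 TPM, and Sdhb, the iron-sulfur subunit, at 925, 743, 145 and 519 TPM. Sdhd was 0.72 higher and Sdhb was at -0.32 with Klf4, while in the cKO-labelled library they were 2.30 and 1.83 higher. Relative to the median gene, Sdhd was at -0.08 and Sdhb at -1.11 with Klf4.

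Complex III split between its small and its large subunits. Uqcr10 was the most abundant nuclear member in MigRI and in control, at 4561, 1236, 8869 and 1755 TPM, and Uqcr11 was at 1456, 392, 2541 and 497 TPM. These small membrane subunits differed by -1.88 and -1.89 with Klf4 and by -2.34 and -2.35 in the cKO-labelled library. The core protein Uqcrc1 was at 392, 775, 42.4 and 151 TPM, its partner Uqcrc2 at 118, 202, 29.5 and 96.2 TPM and the Rieske iron-sulfur protein Uqcrfs1 at 194, 274, 32.5 and 154 TPM. In the cKO-labelled library these 3 were higher by 1.81, 1.67 and 2.21. With Klf4 they were 0.98, 0.76 and 0.49 higher, below 2-fold, and Uqcrc2 and Uqcrfs1 were at -0.03 and -0.30 relative to the median gene. Of the 8 genes, 4 were 2-fold lower and none higher with Klf4, beside 10.3% and 43.7% of all measured genes. In the cKO-labelled library 3 were lower and 3 higher, beside 6.92% and 38.4%. The 3 higher are near the share of all measured genes.

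In complex IV the nuclear genes encode small subunits around a mitochondrially encoded core, and few were higher. Of 14 measured, 10 were at least 2-fold lower and 1 higher with Klf4, beside 10.3% and 43.7% of all measured genes. In the cKO-labelled library 8 were lower and 1 higher, beside 6.92% and 38.4%. The medians were -1.21 and -1.09. Cox6a1, the general form of subunit 6A and the most abundant by mean level, was at 2902, 1215, 4306 and 1806 TPM, differences of -1.26 and -1.25. Cox7c was at 1514, 415, 2759 and 908 TPM, differences of -1.87 and -1.60. Cox5a and Cox4i1 parted between the experiments. Cox5a was at 2318, 635, 2140 and 1558 TPM, -1.87 with Klf4 and -0.46 in the cKO-labelled library. Cox4i1, the general form of subunit 4, was at 2163, 1017, 1928 and 1948 TPM, -1.09 and 0.01. Cox7a2l, which joins respiratory complexes into supercomplexes, was at 113, 133, 57.9 and 128 TPM, 0.23 and 1.13 higher.

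Complex V consists of a catalytic head and stalk, and a membrane part with a peripheral arm. Atp5a1 and Atp5b, which form the head, were at 180, 706, 56.6 and 177 TPM and at 387, 1472, 80.6 and 418 TPM. Both were at least 2-fold higher in each experiment, Atp5a1 by 1.97 and 1.63 and Atp5b by 1.93 and 2.36, and both were above the median gene. Atp5c1, the central shaft, was at 459, 542, 175 and 481 TPM, 0.24 and 1.45 higher. Small subunits such as Atp5j and Atp5k went the other way, though not all small subunits did. Atp5j, in the peripheral arm, was at 2056, 538, 3496 and 1404 TPM, and Atp5k, a small membrane subunit, at 631, 189, 1806 and 388 TPM. Atp5j differed by -1.93 and -1.32 and Atp5k by -1.73 and -2.22. Of the 17 genes, 10 were lower and 2 higher with Klf4, beside 10.3% and 43.7% of all measured genes. In the cKO-labelled library 8 were lower and 6 higher, beside 6.92% and 38.4%. The 6 are near that share.

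**Figure D2:**
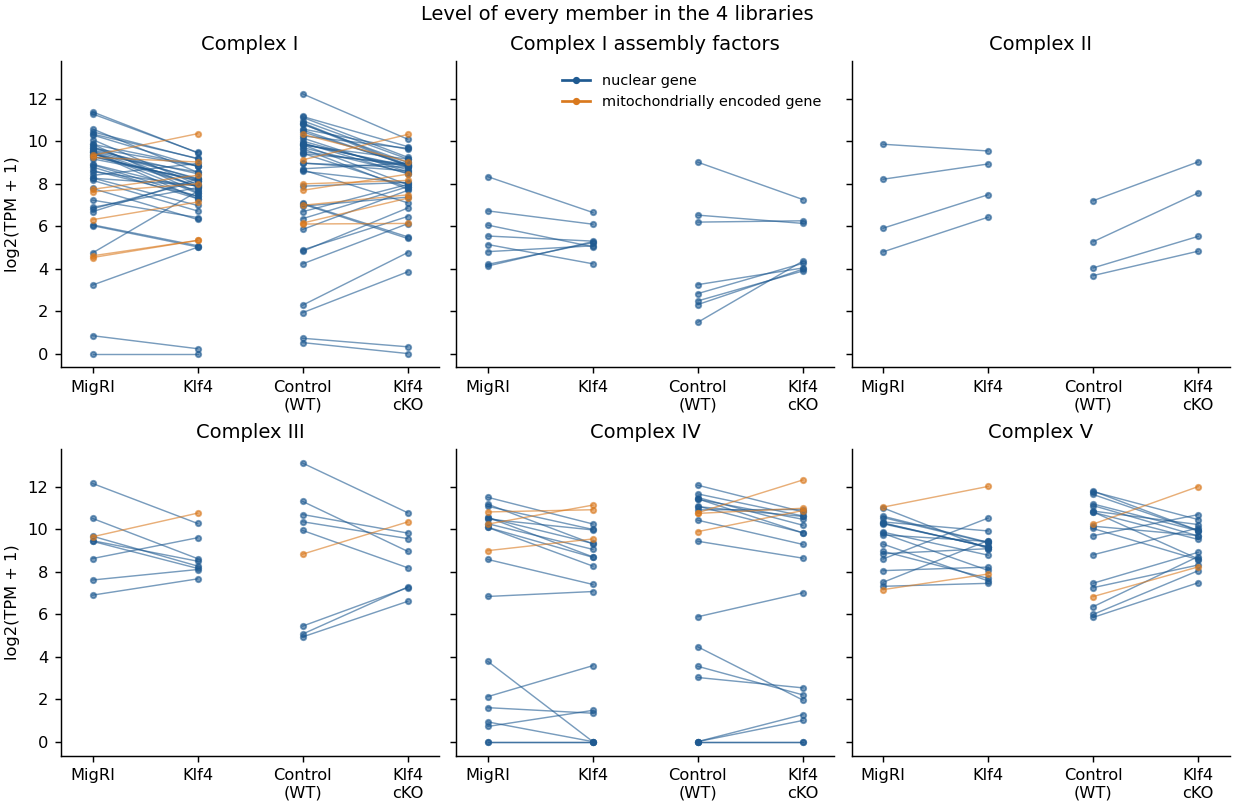
Level, as log2(TPM + 1), of each member (points) in the 4 libraries, by complex, with lines joining the 2 libraries of an experiment. Nuclear and mitochondrially encoded genes are coloured apart. The median differences, not drawn, were between -1.22 and -0.63 for the nuclear genes of complexes I, III, IV and V. They were 1.15 and 1.66 for complex II, and above 0 for the mitochondrially encoded genes.

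A list of 19 subunits was set against the other 58 general nuclear subunits. It held the conserved nuclear core of complex I, all of complex II, the core proteins Uqcrc1 and Uqcrc2 and the Rieske protein of complex III, and the catalytic head and central stalk of complex V, and is called core below. The list was made after the values were seen and supports nothing by itself. With Klf4, 7 core subunits were at least 2-fold higher and 2 lower, with a median of 0.72. Those counts are near the shares of all measured genes, 43.7% higher and 10.3% lower. None of the other subunits was higher and 47 were lower, with a median of -1.28. In the cKO-labelled library 16 core subunits were higher and 1 lower, beside 38.4% and 6.92% of all measured genes, with a median of 1.57. Of the others, 5 were higher and 35 lower, with a median of -1.25. The core median in the gain experiment was -0.08 relative to the median gene, so its sign there depends on the centre.

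Core subunits are also encoded by longer transcripts. Their median annotated transcript was 1450.5 nucleotides, against 659 for the other subunits, and the coding part alone was 846 against 354. Over the 89 nuclear members with a length, the difference followed length, with Spearman's rho of 0.61 for Klf4 over MigRI and 0.71 for cKO-labelled over control, or 0.64 and 0.76 with coding length. Over 9899 other measured genes rho with transcript length was 0.12 and -0.23. Genes are not replicates, and all points of a comparison share the same pair of libraries. The share of all TPM in genes whose longest transcript is under 1000 nucleotides was 39.6% in MigRI, 22.6% with Klf4, 55.9% in control and 42.7% in the cKO-labelled library, lower in each altered library than in its reference. The part of transcript length in the results was not tested beyond the values given here.

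All 26 members with a transcript under 600 nucleotides were below their reference in both experiments, and 23 of them were at least 2-fold lower in each. Their median differences were -1.43 and -1.57, against -1.06 and -0.99 for the 155 other genes of that length. From 1000 to 1500 nucleotides the 17 members had medians of -0.32 and 1.42, against 0.59 and 1.39 for the 1167 other genes. From 1500 to 2000 nucleotides the 9 members were at 0.98 and 1.67, against 1.27 and 1.34. The 3 members of 3000 nucleotides or more left this order, at -0.91 and 0.78, against 0.98 and 0.57 for other genes. By coding length the 26 members with under 300 coding nucleotides had medians of -1.35 and -1.65, and the 12 members with 1000 or more had 1.22 and 1.82. Other genes of those coding lengths had medians of -0.63 and -0.35 in the shortest class, and 1.19 and 0.70 in the longest.

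Set against other genes of their own length band, the nuclear members stayed below by less. Their medians were -0.50 and -0.45, with 72 of 89 below 0 in the gain experiment and 59 of 89 in the loss experiment. The mitochondrially encoded genes were at 0.85 and 0.29 by the same measure, so the classes were then separated by 1.35 and 0.74. Core subunits were at -0.03 and 0.36, and the other subunits at -0.80 and -0.78. Within 1 band, from 1000 to 1500 nucleotides, 6 core subunits had medians of -0.04 and 1.66 and 7 others had -1.16 and -0.80. Under 800 nucleotides the 2 core subunits were also below 0, with medians of -0.95 and -0.81, against -1.43 and -1.31 for 38 others. The annotated transcript may not be the expressed one: Uqcrq and Atp5g1, with short coding parts of 246 and 408 nucleotides, are listed with transcripts of 1521 and 2655.5 nucleotides.

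**Figure D3:**
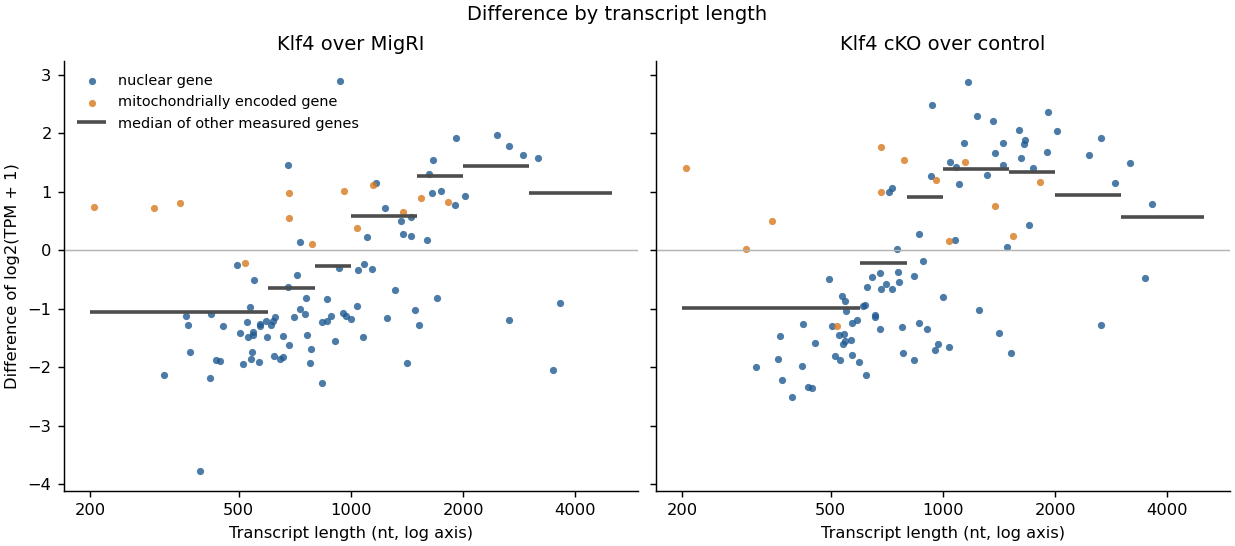
Difference of log2(TPM + 1) of measured members (points) against annotated transcript length in nucleotides (log axis), for both comparisons. Nuclear and mitochondrially encoded genes are coloured apart, and bars give the median of other measured genes per length band. Nuclear members under 600 nucleotides all lie below 0, and most nuclear members above 1500 nucleotides lie above 0.

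Subunits that meet in fixed proportion in the protein complex spanned a wide range of transcript levels, and the range differed between libraries. TPM are divided by annotated length, and since the annotated transcript may not be the expressed one, the folds between genes hold only as far as those lengths do. Over 77 general subunits the SD of log2(TPM + 1) was 1.54 in MigRI, 1.02 with Klf4, 2.47 in control and 1.38 in the cKO-labelled library. The highest subunit was 547-fold above the lowest in MigRI, 47.3-fold with Klf4, 3179-fold in control and 146-fold in cKO-labelled cells, and Ndufs1 was the lowest in all 4. In complex III alone Uqcr10 was 38.6-fold, 6.13-fold, 301-fold and 18.2-fold above Uqcrc2. Over the 77 subunits the SD was smaller in each altered library than in its reference, but not in every group. In complex II it was 1.59 in control and 1.92 in cKO-labelled cells, and over the mitochondrially encoded genes 1.74 and 1.93, while the interquartile range of complex IV was wider in both altered libraries (0.74 and 1.18, and 0.79 and 1.06). Levels and transcript length were related with rho of -0.42, -0.06, -0.62 and -0.45 over the members, and with -0.50, -0.49, -0.38 and -0.47 over the 9899 other genes.

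The 13 mitochondrially encoded genes lie on a single circular molecule, and 12 of them are read from the same strand. The sequences where neighbouring genes overlap are shown because reads there belong to both genes, and the kit does not mark strand. They come from the GENCODE vM21 transcripts on GRCm38 (mm10), 5′ to 3′, with the shared bases in capitals. ATP8 and ATP6 share 43 bases, chrM:7927-7969, so the end of ATP8 (chrM:7880-7969, plus strand) is the start of ATP6 (chrM:7927-8016, plus strand).
ATP8: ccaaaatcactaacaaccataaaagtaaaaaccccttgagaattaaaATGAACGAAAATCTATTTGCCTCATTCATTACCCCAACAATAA
ATP6: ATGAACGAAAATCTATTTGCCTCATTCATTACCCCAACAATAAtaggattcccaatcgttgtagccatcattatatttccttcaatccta
ND4L and ND4 share 7 bases, chrM:10167-10173, at the end of ND4L (chrM:10114-10173) and the start of ND4 (chrM:10167-10226), both on the plus strand.
ND4L: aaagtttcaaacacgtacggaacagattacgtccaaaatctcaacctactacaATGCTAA
ND4: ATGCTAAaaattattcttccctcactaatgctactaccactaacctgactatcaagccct
ND5 and ND6 run towards each other and share 14 bases at their ends, chrM:13552-13565. ND5 is on the plus strand (chrM:13506-13565) and ND6 on the minus strand (chrM:13552-13611).
ND5: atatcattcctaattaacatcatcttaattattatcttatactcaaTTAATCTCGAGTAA
ND6: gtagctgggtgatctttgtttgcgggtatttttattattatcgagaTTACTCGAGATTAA

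In complex V, ATP6, a proton channel subunit, was at 2104, 4139, 1210 and 4115 TPM, and ATP8, a short subunit beside it, at 142, 236, 113 and 299 TPM. Both were higher in each altered library, ATP6 by 0.98 and 1.77 and ATP8 by 0.73 and 1.40. Although both are carried on the joined message shown above, ATP6 exceeded ATP8 by 14.9-fold, 17.5-fold, 10.7-fold and 13.8-fold. ND4 and ND4L, membrane subunits of complex I, also share a message and were at 212, 336, 205 and 347 TPM and at 23.3, 39.1, 67.5 and 68.8 TPM. ND4 exceeded ND4L by 9.11-fold, 8.57-fold, 3.03-fold and 5.04-fold. The longer partner of each joined pair was the higher in all 4 libraries. ATP8 is 204 and ND4L 297 nucleotides long, and how reads over the shared bases were assigned was not stated in the labels.

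ND6, the one protein gene on the other strand, differed from the rest. It was at 601, 518, 1283 and 524 TPM, and so lowest in the Klf4-transduced library and highest in control. It was -0.21 with Klf4 and -1.29 in the cKO-labelled library, as deposited the only mitochondrially encoded gene below 0 in either comparison, whereas relative to the median gene others joined it there. ND5, whose end overlaps that of ND6, was at 77.9, 139, 69.6 and 158 TPM, 0.83 and 1.17 higher. ND6 exceeded ND5 by 7.72-fold, 3.72-fold, 18.4-fold and 3.32-fold. Because strand was not kept, reads from ND6 and from antisense RNA of ND5 or its neighbours cannot be told apart.

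CYTB, the haem subunit of complex III, was at 800, 1731, 453 and 1298 TPM, and ND1, a membrane subunit of complex I, at 645, 1306, 555 and 1272 TPM. They were the 2 mitochondrially encoded genes at least 2-fold higher in both experiments, by 1.11 and 1.52 for CYTB and by 1.02 and 1.20 for ND1. Relative to the median gene they were 0.32 and 0.78, and 0.22 and 0.46. The 3 mitochondrially encoded subunits of complex IV were less alike. COX1, which binds haem and copper, was at 1210, 2250, 1717 and 2030 TPM, 0.89 and 0.24 higher. COX3 was at 1800, 1935, 1754 and 5114 TPM, 0.10 higher with Klf4 and 1.54 higher in the cKO-labelled library, where it was the highest of the 13. COX2, the copper subunit that takes electrons from cytochrome c, was at 508, 744, 947 and 1884 TPM, 0.55 and 0.99 higher. Of the remaining complex I genes, ND2 was at 194, 254, 253 and 283 TPM and ND3 at 21.9, 39.1, 125 and 176 TPM. ND2 was 0.38 and 0.16 higher and ND3 0.81 and 0.49 higher, all below 2-fold.

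**Figure D4:**
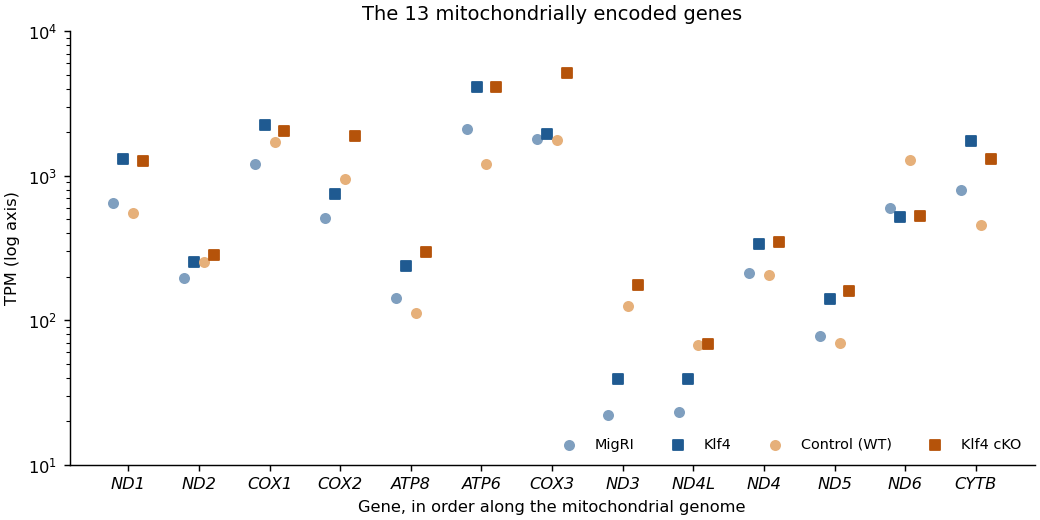
TPM (log axis) of the 13 mitochondrially encoded genes in each of the 4 libraries, 1 point per library. All genes except ND6 are higher in each altered library than in its reference, and ND6 is highest in control, at 1283 TPM.

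Several subunits exist in general and tissue-restricted forms, which the symbols tell apart. Ndufa4l2, a hypoxia-induced relative of Ndufa4, had the highest difference of all nuclear members with Klf4. It was at 25.7, 198, 3.84 and 25.9 TPM, a TPM ratio of 7.72 and 6.76, and differences of 2.90 and 2.48. Ndufa4, which is grouped here with complex I by its symbol though it is known as a subunit of complex IV, was at 1390, 574, 1523 and 784 TPM, differences of -1.27 and -0.96. Ndufa4 exceeded Ndufa4l2 by 54.2-fold, 2.90-fold, 396-fold and 30.2-fold, so the general form remained the higher in all 4 libraries.

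Cox7a1, the heart and muscle form of subunit 7A, was at 12.7 TPM in MigRI, listed at 0 with Klf4, and at 21.1 and 2.88 TPM in the loss experiment. An exact 0 can be a failed estimate and no fold is given for it, and the lowest value of the range of differences above, -3.78, is this gene. In the loss experiment Cox7a1 differed by -2.51. Cox7a2, the general form, was at 1086, 307, 1374 and 623 TPM, lower in both altered libraries as well (-1.82 and -1.14). Cox6a2, the muscle form of subunit 6A, was at 3.34, 10.9, 10.7 and 3.60 TPM, 1.46 higher with Klf4 and -1.35 in the cKO-labelled library. It was the only nuclear member at least 2-fold apart in opposite directions, beside 2.77% of all measured genes. Cox8b and Cox8c, muscle and testis forms, were listed at 0 in every library, and Cox4i2, the hypoxia form of subunit 4, did not exceed 1 TPM in any.

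Subunit c of the ATP synthase, the rotating ring, is made from Atp5g1, Atp5g2 and Atp5g3, which encode the same mature protein. Atp5g1 was at 1501, 657, 1778 and 734 TPM, Atp5g3 at 1298, 968, 827 and 1647 TPM and Atp5g2 at 158, 174, 151 and 318 TPM. Atp5g1 gave 50.8% of their sum in MigRI and 36.5% with Klf4, and 64.5% in control and 27.2% in cKO-labelled cells. Atp5g3 gave 43.9% and 53.8%, and 30.0% and 61.0%. In both experiments the leading gene changed from Atp5g1 in the reference to Atp5g3.

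The comparisons share no library, and their values were set side by side. Of 91 nuclear members, 78 had the same sign in both, 57 below and 21 above 0. At least 2-fold lower in both were 37, beside 2.86% of all measured genes, and at least 2-fold higher in both were 10, beside 20.3%. They included Atp5a1, Atp5b, Ndufa4l2, Ndufaf5, Ndufaf7, Ndufs1, Ndufv1, Sdha and Sdhc. A further 12, such as Ndufv2, Ndufs3, Sdhb and Atp5d, were below 0 with Klf4 and above 0 in the cKO-labelled library. Spearman's rho between the comparisons was 0.80 over the nuclear members, 0.46 over the 13 mitochondrially encoded genes and 0.30 over 12466 other measured genes. Gain and loss of Klf4 are opposite by label, and the nuclear members mostly differed from their references in the same direction.

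**Figure D5:**
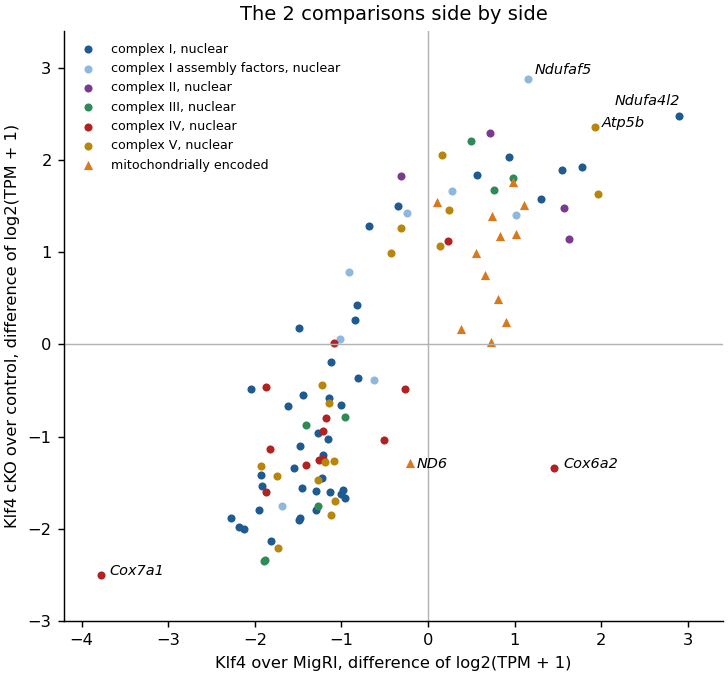
Difference of log2(TPM + 1) for cKO-labelled over control (vertical) against Klf4 over MigRI (horizontal) for each measured member, nuclear and mitochondrially encoded genes marked apart. Of 91 nuclear members 57 lie below 0 on both axes and 21 above 0 on both.

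Other cells may contribute RNA, and in such bulk samples fewer cells of a type and less RNA per cell cannot be told apart. The 11 T cell markers summed to 24658, 5818, 8203 and 18690 TPM, all 11 at 1 TPM or more in every library. Of 15 macrophage markers, 11, 15, 12 and 14 reached 1 TPM, and they summed to 1103, 5109, 790 and 1469 TPM. The 10 markers of fibroblasts and endothelium summed to 145, 1396, 30.7 and 254 TPM, and the 9 of neutrophils and mast cells to 30.0, 173, 29.6 and 59.2 TPM. In the loss experiment the latter parted, with the neutrophil gene S100a8 at 18.1 and 2.44 TPM and the mast cell gene Tpsb2 listed at 0 and at 21.1 TPM. The 8 tumour epithelium markers summed to no more than 9.70 TPM, with Krt19 and Krt20 at 0 in every library. The 5 B cell markers summed to 6.80, 23.7, 2.29 and 6.34 TPM, with Ms4a1 at 0 in every library and Cd79a at 3.52, 20.6, 0.73 and 3.12 TPM. The 6 erythroid markers summed to 974, 789, 7.35 and 2.63 TPM. The summed T cell markers were thus lower with Klf4 and higher in the cKO-labelled library, and the summed macrophage and fibroblast markers were higher in both altered libraries. Single markers departed from their sums: in the cKO-labelled library Cd3d was at 1936 against 2580 TPM in control and Tyrobp at 210 against 433 TPM. Their part in the results was not tested.

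Genes around the respiratory chain were read from lists of their own, beside 43.7% of all measured genes higher and 10.3% lower with Klf4, and 38.4% higher and 6.92% lower in the cKO-labelled library. Carriers that link the complexes included Cyc1, the cytochrome c1 subunit of complex III that the symbol rule leaves out, at 752, 1798, 224 and 535 TPM, and Cycs, cytochrome c, at 443, 148, 320 and 149 TPM. Cyc1 was 1.26 and 1.25 higher and Cycs -1.58 and -1.09. Of the 16 carriers and exchangers, 5 were at least 2-fold higher and 2 lower with Klf4, and 10 higher and 3 lower in the cKO-labelled library, with medians of 0.69 and 1.28. Vdac1, the pore of the outer membrane, was at 50.8, 320, 17.4 and 52.1 TPM, and Slc25a4, which exchanges ADP for ATP, at 364, 1441, 79.7 and 337 TPM. Both were higher in each altered library, by 2.63 and 1.53 and by 1.98 and 2.06.

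Of 16 genes of the tricarboxylic acid cycle and pyruvate dehydrogenase, which supply complexes I and II, 11 and 12 were at least 2-fold higher and none lower, with medians of 1.36 and 1.78. Of 17 glycolysis genes, 16 and 12 were higher, with 0 and 1 lower and medians of 1.98 and 1.78. Both lists were above the median measured gene in each experiment, by 0.57 and 1.04 and by 1.18 and 1.04, whereas the nuclear members of the respiratory chain were below it. The median transcripts of these lists were 2590 and 2386 nucleotides, longer than the 781 of the nuclear members. Against their own length bands the cycle genes were at 0.07 and 0.65 and the glycolysis genes at 0.93 and 0.80.

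Of 28 measured genes for transcription and handling of mitochondrial DNA, 11 were higher and 2 lower with Klf4, and 16 higher and 2 lower in the cKO-labelled library. The 11 are near the share of all measured genes, 43.7%. Tfam, which packs that DNA and takes part in its transcription, was at 8.86, 10.02, 3.02 and 8.52 TPM, 0.16 and 1.24 higher. Slirp, which stabilises mitochondrial messages, was at 435, 192, 982 and 250 TPM, -1.18 and -1.97, and so opposite to most mitochondrially encoded messages. Of 42 assembly factors outside the symbol rule, 12 were higher and 11 lower, and 13 higher and 7 lower. Cox17, a copper carrier for complex IV, was at 2539, 376, 4968 and 1365 TPM, -2.75 and -1.86. Sco2, another copper chaperone, was at 0.35 and 40.6 TPM in the gain experiment, 4.94 higher, and listed at 0 in control and at 9.53 TPM in the cKO-labelled library. Of 8 measured regulators of mitochondria, 3 and 4 were higher and none lower, near the shares of all genes, and Ppargc1a, the best known of them, was listed at 0 in all 4 libraries.

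Ribosomal protein genes were also read. The cytosolic ones had a median transcript of 785.5 nucleotides, near that of the nuclear members, and the mitochondrial ones of 1253. The 91 measured cytosolic ones had medians of -0.60 and -0.13, with 2 higher and 19 lower with Klf4 and 22 higher and 12 lower in the cKO-labelled library. The 78 mitochondrial ones had medians of -0.41 and 1.00, with 7 higher and 22 lower, and 39 higher and 9 lower. Of all measured genes, 43.7% were higher and 10.3% lower with Klf4, and 38.4% and 6.92% in the cKO-labelled library. The nuclear members of the respiratory chain lay below both lists, with medians of -1.12 and -0.79. Against their length bands the medians were -0.08 and 0.10 for the cytosolic and -0.76 and -0.06 for the mitochondrial ribosomal genes, and -0.50 and -0.45 for the nuclear members.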

How the data were processed

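Per the labels' protocols, RNA was extracted with TRI Reagent and amplified with the SMART-seq v4 kit, which does not mark strand. Tools named in the submitters' processing notes were Trimmomatic, HISAT2, StringTie and edgeR, with build mm10. Versions, roles and annotation: not given in the sources used here. The authors deposited gene-level TPM, 1 table of 45777 entries per library. TPM keep no depth, so the depth is unknown and values carry no counting interval. The control table held 26 symbols turned into dates, of which the 4 genes with ambiguous names were left out everywhere.

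Differences are of log2(TPM + 1) within an experiment, called at 2-fold, over genes averaging 1 TPM or more, with no test because each group is 1 library. Scripts were tested on simulated data and ran in Python 3.11.15 with pandas 2.3.3, numpy 2.4.6 and scipy 1.17.1. Transcript and coding lengths are medians over GENCODE vM21 transcripts paired with curated RefSeq messages. Named genes were all mitochondrially encoded genes, paralogous subunits, and in each complex the 2 highest mean levels and the 2 highest and 2 lowest differences per comparison, with the extremes of each list. Ndufs3, Ndufs7, Ndufs8, Ndufv1, Ndufv2, Ndufa9, Cox5a, Atp5c1, Atp5d, Cyc1, Tfam, Ppargc1a, Cd3d and Tyrobp were chosen after their values were seen, as were the core list and the coding lengths. Members and lists were chosen with earlier results of these data known. Alternatives were other pseudocounts, filters and scalings, and, added after seeing the data, length bands. Some gene values are not reported here.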

Additional observations from a re-analysis of the deposited data

How the results depend on the processing

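No alternative turned the nuclear median positive in either comparison, and the gap between the classes stayed positive under each, from 1.35 to 1.88 for Klf4 over MigRI and from 0.74 to 1.79 for cKO-labelled over control, where 0.74 came with length bands. Under pseudocounts of 0.1 and 5 and the filters, every class and complex median and count of calls stayed within 1.5 times of its value as reported. No paired analysis was possible because each group held 1 library, and for the same reason none could be left out.

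Medians are given as Klf4 over MigRI and then cKO-labelled over control. Relative to the median measured gene they were -1.91 and -1.53 (nuclear), -0.0588 and 0.25 (mitochondrially encoded), -2.02 and -1.80 (complex I), -1.23 and 0.36 (its assembly factors), 0.35 and 0.92 (II), -1.91 and -1.57 (III), -2.001 and -1.83 (IV), and -1.88 and -1.37 (V). Under median of ratios scaling they were -2.12 and -1.67 (nuclear), -0.24 and 0.12 (mitochondrially encoded), -2.22 and -1.94 (I), -1.41 and 0.31 (assembly), 0.15 and 0.80 (II), -2.12 and -1.71 (III), -2.21 and -1.97 (IV), and -2.08 and -1.51 (V). With length bands the gain values that moved were -0.50 (nuclear), 0.16 (II), -0.42 (III), -0.49 (IV) and -0.35 (V), and the loss values 0.29 (mitochondrially encoded), 0.0558 (assembly), 0.68 (II), 0.15 (III, a change of sign) and -0.47 (IV). Quantile normalization gave -1.13 and 0.27 for the assembly factors and 0.91 for complex II in the loss experiment.

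Nuclear members at least 2-fold higher numbered 3 and 12 relative to the median gene, 1 and 9 by median of ratios, 7 and 11 by quantiles, and 2 and 6 by length bands. Those lower numbered 23 and 25 by length bands, and 28 in the gain experiment relative to short genes. Mitochondrially encoded genes higher with Klf4 numbered 0 relative to the median gene, by median of ratios and without the 50 highest genes, 1 without mitochondrial, ribosomal and receptor genes, 4 by quantiles, 6 by length bands and 9 relative to short genes. In the loss experiment 1 was higher relative to the median gene and 0 by median of ratios. Those lower numbered 1 with Klf4 relative to the median gene and by median of ratios, and 2 in the loss experiment by length bands. By length bands 4 called genes changed sign: Ndufaf7 in the gain experiment (-0.25), and Cox7a2l (-0.26), Ndufv2 (-0.10) and ND5 (-0.16) in the loss experiment. The causes were not tested. With medians in place of sums the class ratios were 0.815, 1.84, 0.622 and 1.32.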

Other observations

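The 2 ribosomal RNAs of mitochondrial DNA are transcribed from the same strand as most of the protein genes. mt-Rnr1 was at 241, 131, 561 and 732 TPM in the MigRI, Klf4-transduced, control and cKO-labelled libraries, and mt-Rnr2 at 1185, 725, 2676 and 2848 TPM. With Klf4 they were at -0.87 and -0.71, below the reference, where 12 of the 13 protein genes were above it. In the cKO-labelled library they were 0.38 and 0.09 higher, below 2-fold. How the kit recovers RNAs without a long poly(A) tail was not tested.

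Ndufb1-ps, left out by the symbol rule because of its suffix, was at 338, 115, 829 and 365 TPM, differences of -1.54 and -1.18, on the same side as most of the accessory complex I subunits.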
